A study of Gallus gallus with 16 samples.

Results

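Of the 18151 gene rows counted by RNA-Seq in cultured chicken granulosa cells, 68 belonged to the cadherins, claudins, connexins and their closest junction partners. The genes were chosen by a rule on their symbols, set with earlier results of these data known. They comprised 20 cadherins (CDH), 20 claudins (CLDN), 17 connexins (GJA, GJB, GJC and GJD), 3 desmosomal cadherins (DSC2, DSG2 and DSG4) and 8 plaque, scaffold and other junction genes (among them CTNNA1, DSP, JUP, OCLN, PKP2, TJP1 and TJP3). The adhesion molecule F11R was not analysed here. Primary granulosa cells of White Leghorn hens aged 25 to 30 weeks were pre-cultured for 16 h, transfected by lipofection and collected 48 h later. The groups were poGC-KD (cells of pre-ovulatory follicles with FOXL2-siRNA), poGC-CT (the same cells with NC-siRNA), phGC-KD (cells of pre-hierarchical small yellow follicles with FOXL2-siRNA) and phGC-CT (with NC-siRNA), with 4 libraries each. Every library, controls included, came from cells that had been cultured and transfected. The follicles came from 4 hens and the labels tie no library to a hen, so that p-values measure the spread between these cultures, part of which may be technical.

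Granulosa cells form an epithelium around the oocyte without blood vessels of its own, and they hold together by adherens junctions, tight junctions, desmosomes and gap junctions. Cadherins bind the cadherins of the neighbouring cell and are linked to actin through catenins, while desmosomal cadherins are linked to keratin filaments through plakoglobin, plakophilins and desmoplakin. Claudins and occludin seal the space between cells and are held by the TJP scaffold proteins. Connexins form the channels through which granulosa cells pass small molecules to each other and, in mammals, to the oocyte. FOXL2 is a forkhead transcription factor of granulosa cells.

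The FOXL2-siRNA and the nonsense NC-siRNA are printed because the knockdown comparisons rest on this pair, 1 duplex against 1 duplex. Each strand is given 5′ to 3′, with the ribonucleotides in lower case and the TT overhang in capitals.
FOXL2-siRNA sense: gccucaacgagugcuucauTT
FOXL2-siRNA antisense: augaagcacucguugaggcTT
NC-siRNA sense: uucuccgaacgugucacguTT
NC-siRNA antisense: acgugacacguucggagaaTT
With a single duplex against FOXL2, the loss of FOXL2 and other effects of that sequence cannot be told apart.

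The libraries held 45697479 to 56121795 counts in poGC-KD, 36191442 to 53062138 in poGC-CT and 29979116 to 44937588 in phGC-KD. Those of phGC-CT held 30476674 to 32997177. Differences were tested on the counts with edgeR's quasi-likelihood test, and a gene was called changed at a Benjamini-Hochberg adjusted p under 0.05 over all genes tested. Library values are given as CPM, which are counts relative to the library total, scaled with TMM factors over all 16 libraries, in the order of replicates 1 to 4. Levels of different genes were set beside each other only by the deposited FPKM, which is corrected for transcript length. FOXL2 itself had 508, 445, 472 and 393 CPM in poGC-KD, against 688, 758, 769 and 724 CPM in poGC-CT, and it fell in poGC (log2 fold change -0.68, standard error 0.079, adjusted p = 0.000353, edgeR). In phGC it had 401, 506, 399 and 363 CPM in phGC-KD, against 472, 497, 682 and 589 CPM in phGC-CT, with overlapping libraries (log2 fold change -0.43, standard error 0.14, adjusted p = 0.0878, edgeR), and it passed the test without phGC-KD replicate 2 or phGC-CT replicate 1 (adjusted p 0.0489 to 0.0492). The study itself reported lower FOXL2 in both cell types, by qRT-PCR of the same RNA and by Western blot. Of 14 granulosa markers 13 were measured, and their summed FPKM ran from 861 to 1351 over the libraries, with AMH, a product of granulosa cells of growing follicles, lower in poGC-CT than in phGC-CT (log2 fold change -5.03) and CYP11A1, the enzyme that starts steroid synthesis, higher (1.72). Libraries of the same group correlated at 0.98 to 0.989 on log2 CPM.

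A mean of at least 1 FPKM in some group was reached by 29 of the 68 junction genes, and it is called expressed below. By group, 23 were expressed in poGC-KD, 22 in poGC-CT, 26 in phGC-KD and 27 in phGC-CT, and 19 were expressed in all groups. Every one of the 8 plaque, scaffold and other junction genes was expressed, against 8 of 20 cadherins, 5 of 20 claudins, 6 of 17 connexins and 2 of 3 desmosomal cadherins. A mean of at least 10 FPKM was reached by 13 of them, and 22 stayed under 0.1 FPKM in every group. The 68 genes together took 0.443% to 0.489% of the counts in poGC-KD, 0.446% to 0.462% in poGC-CT, 0.313% to 0.360% in phGC-KD, and 0.329% to 0.372% of those in phGC-CT.

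**Figure D1:**
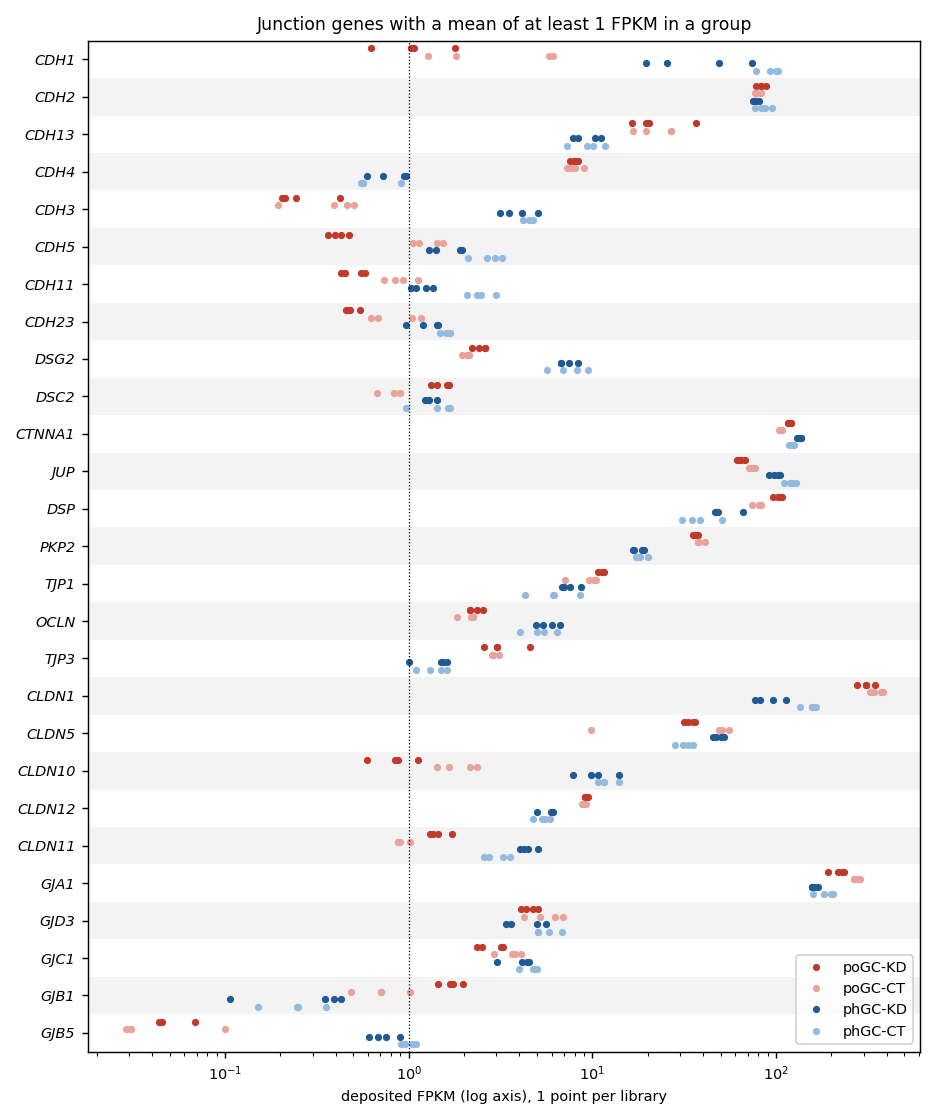
Deposited FPKM (log axis) of 27 expressed junction genes, with 1 point per library, 4 libraries per group and a dotted line at 1 FPKM. CLDN1 and GJA1 lie furthest to the right, CDH2 has group means of 77.2 to 85.5 FPKM, and the poGC and phGC points of CDH1, CDH4, CDH3 and CLDN10 lie apart.

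N-cadherin (CDH2), the classical cadherin of many mesenchymal, neural and gonadal cells, was the steady member of its family. It had 82.9 ± 4.11 FPKM in poGC-KD, 78.7 ± 3.05 in poGC-CT, 77.2 ± 2.21 in phGC-KD and 85.5 ± 7.74 in phGC-CT (SD, n = 4 here and below). E-cadherin (CDH1), the classical cadherin of epithelia, had 1.12 ± 0.479 FPKM in poGC-KD, 3.74 ± 2.55 in poGC-CT, 41.96 ± 24.8 in phGC-KD and 93.1 ± 11.2 in phGC-CT. The ratio of CDH2 to CDH1 within a library had a median of 79.4 in poGC-KD, 27.8 in poGC-CT, 2.35 in phGC-KD and 0.885 in phGC-CT, on the FPKM scale. In phGC-CT both cadherins stood at like levels, with CDH1 at 39.4% to 51.5% of the summed FPKM of the cadherins and CDH2 at 38.7% to 48.3%, while in poGC-CT CDH2 held 64.9% to 68.6% and CDH1 1.01% to 5.39%.

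The next in the family was T-cadherin (CDH13), which is anchored by a lipid and lacks the tail that binds catenins, with 23.2 ± 9.11 FPKM in poGC-KD, 22.4 ± 5.13 in poGC-CT, 9.45 ± 1.59 in phGC-KD and 9.59 ± 1.82 in phGC-CT. R-cadherin (CDH4), first described in the chicken retina, had 7.97 ± 0.342 FPKM in poGC-KD, 7.98 ± 0.733 in poGC-CT, 0.806 ± 0.179 in phGC-KD and 0.645 ± 0.173 in phGC-CT. P-cadherin (CDH3) had the opposite distribution, with 0.271 ± 0.103 FPKM in poGC-KD, 0.388 ± 0.136 in poGC-CT, 3.97 ± 0.842 in phGC-KD and 4.53 ± 0.266 in phGC-CT. The other 3 expressed cadherins were low: CDH5, the cadherin of vascular endothelium, reached 2.73 FPKM, CDH11, a mesenchymal cadherin, 2.48 FPKM, and CDH23, known from the tip links of hair cells, 1.61 FPKM, each in phGC-CT where its mean was highest. For CDH13 and CDH23, as for GJB5 and TJP3 below, the FPKM per count differed by more than 1.5 times between libraries, so that their FPKM and CPM need not move together.

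On the desmosomal side the plaque genes DSP, JUP and PKP2 had a higher FPKM in every group than the 3 desmosomal cadherins measured. The proteins of these genes were not measured. Desmoplakin (DSP), which ties the plaque to keratins, had 102 ± 5.104 FPKM in poGC-KD, 79.9 ± 4.21 in poGC-CT, 51.9 ± 9.72 in phGC-KD and 38.7 ± 8.68 in phGC-CT. Plakoglobin (JUP), which is shared by desmosomes and adherens junctions, had 64.05 ± 2.93 FPKM in poGC-KD, 73.7 ± 2.31 in poGC-CT, 99.2 ± 5.64 in phGC-KD and 120.2 ± 7.73 in phGC-CT. Plakophilin 2 (PKP2) had 36.5 ± 1.15 FPKM in poGC-KD, 38.6 ± 1.69 in poGC-CT, 17.8 ± 1.204 in phGC-KD and 18.2 ± 1.28 in phGC-CT. The desmosomal cadherin DSG2 had 2.46 ± 0.178 FPKM in poGC-KD, 2.07 ± 0.0807 in poGC-CT, 7.32 ± 0.764 in phGC-KD and 7.56 ± 1.67 in phGC-CT. The other expressed one, DSC2, had 1.502 ± 0.159 FPKM in poGC-KD, 0.825 ± 0.106 in poGC-CT, 1.297 ± 0.0847 in phGC-KD and 1.43 ± 0.325 in phGC-CT. DSG4, known from hair and skin in mammals, did not exceed a group mean of 0.0746 FPKM.

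Alpha-catenin (CTNNA1), the link of cadherins to actin, had 119 ± 2.47 FPKM in poGC-KD, 106 ± 2.12 in poGC-CT, 134 ± 2.93 in phGC-KD and 122 ± 3.15 in phGC-CT, a narrow range. The tight junction scaffold TJP1 had 11.3 FPKM in poGC-KD, 9.301 in poGC-CT, 7.53 in phGC-KD and 6.28 in phGC-CT. TJP3 had 3.29 FPKM in poGC-KD, 2.92 in poGC-CT, 1.41 in phGC-KD and 1.38 in phGC-CT. Occludin (OCLN), a tight junction protein with the same membrane topology as claudins, had 2.29 ± 0.181 FPKM in poGC-KD, 2.12 ± 0.196 in poGC-CT, 5.75 ± 0.769 in phGC-KD and 5.21 ± 0.9901 in phGC-CT.

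CLDN1, a sealing claudin, had the highest FPKM of all 68 genes in both poGC groups, with 309.7 ± 29.1 FPKM in poGC-KD, 354 ± 27.1 in poGC-CT, 91.8 ± 16.2 in phGC-KD and 153 ± 12.8 in phGC-CT. It ranked 141 among all 18151 rows in poGC-KD, 125 in poGC-CT, 800 in phGC-KD and 464 in phGC-CT. CLDN5, best known from the endothelium of the brain, had 34.1 ± 2.25 FPKM in poGC-KD, 41.3 ± 21.2 in poGC-CT, 48.7 ± 3.19 in phGC-KD and 31.8 ± 3.09 in phGC-CT, and the wide spread in poGC-CT came from replicate 1, at 9.77 FPKM. Further down, CLDN12 had 9.25 FPKM in poGC-KD, 9.02 in poGC-CT, 5.74 in phGC-KD and 5.37 in phGC-CT. CLDN10, which forms ion pores in mammalian kidney, had 0.859 FPKM in poGC-KD, 1.898 in poGC-CT, 10.6 in phGC-KD and 11.9 in phGC-CT. CLDN11, known from myelin and Sertoli cells in the mouse, had 1.46 FPKM in poGC-KD, 0.913 in poGC-CT, 4.46 in phGC-KD and 3.02 in phGC-CT. CLDN1 held 72.3% to 94.5% of the summed claudin FPKM in the control libraries, 85.3% to 88.8% in poGC-KD and 50.6% to 62.2% in phGC-KD.

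Among connexins GJA1, the main gap junction protein of granulosa cells, stood alone. It had 218 ± 18.2 FPKM in poGC-KD, 274 ± 8.98 in poGC-CT, 161 ± 6.35 in phGC-KD and 187 ± 20.6 in phGC-CT, which was 89.3% to 95.4% of the summed connexin FPKM in every library. It was the highest of the 68 genes in phGC-KD and phGC-CT. GJD3, far below it, had 4.56 FPKM in poGC-KD, 5.63 in poGC-CT, 4.39 in phGC-KD and 5.68 in phGC-CT. GJC1 had 2.82 FPKM in poGC-KD, 3.62 in poGC-CT, 4.02 in phGC-KD and 4.66 in phGC-CT. In the RefSeq gene table GJC1 is only a synonym of GJC3, so that its identity rests on the symbol in the files. GJB1, the connexin of hepatocytes in mammals, and GJB5 reached 1.71 FPKM in poGC-KD and 1.00 FPKM in phGC-CT at most.

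**Figure D2:**
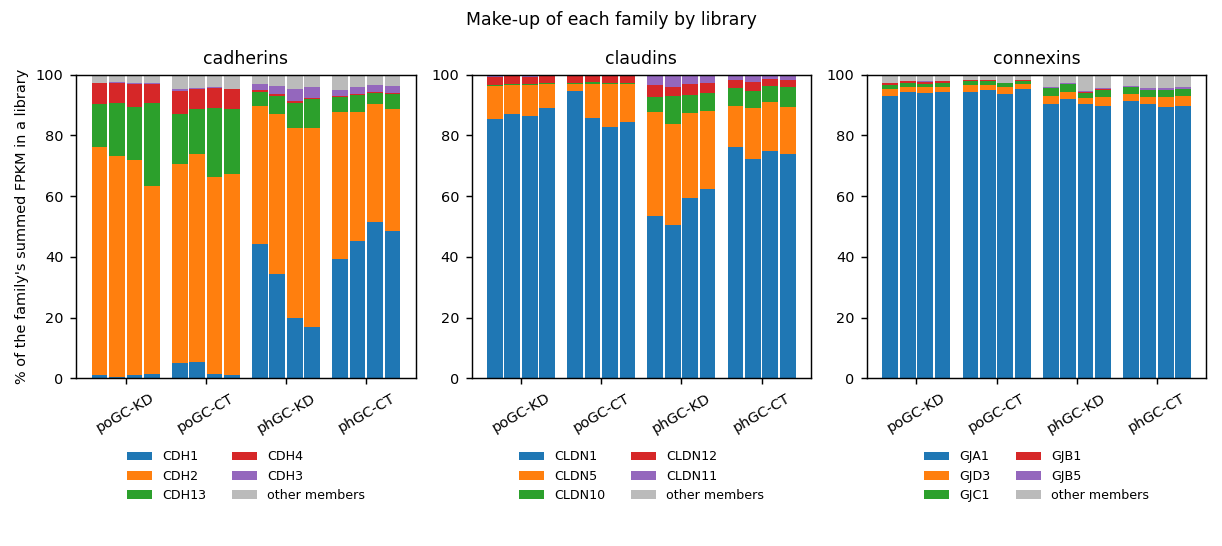
Share of each family's summed FPKM (%) held by the genes named in each legend, with 1 bar per library, 4 bars per group and the remaining members in grey. CDH1 takes 39.4% to 51.5% of the cadherin FPKM in phGC-CT and 1.01% to 5.39% in poGC-CT, while GJA1 takes 89.3% to 95.4% of the connexin FPKM in every library.

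Follicle stage was compared between the control groups, poGC-CT over phGC-CT. Of the 68 genes 45 had enough counts for the test, and 34 were called, 18 higher and 16 lower in poGC-CT. Most of the transcriptome differed between these groups, since 64% of all 14089 genes tested were called (32.5% higher and 31.5% lower), against 75.6% of the 45. The study lists more reads, and a larger share of high-quality bases, for every poGC-CT library than for any phGC-CT library. Stage and such differences in sequencing cannot be told apart. CDH20, GJA4 and GJA5, with no phGC-CT library over the cutoff of the count filter, entered the test only through poGC. They are high there and had to differ. Without these 3, 31 of 42 genes were called (73.8%). The 42 still hold GJB5 and CDH8, which entered mainly through the group where they are high. Most poGC-CT libraries of GJB5 and most phGC-CT libraries of CDH8 lay under the cutoff, so that the filter favoured a difference. The libraries of both groups did not overlap for 32 of the 45, against 60.3% of all genes tested. The median log2 fold change was 0.0455 over the 45 and 0.00362 over all genes. In cultures of whole cell isolates, fewer cells of a type and less RNA per cell cannot be told apart in any of these values.

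CDH1 showed the largest fall among the expressed members at the later stage. It had 18.3, 19.6, 5.82 and 4.08 CPM in poGC-CT, against 229, 275, 312 and 300.4 CPM in phGC-CT, and the highest poGC-CT library lay far below the lowest phGC-CT library (log2 fold change -4.56, standard error 0.51, adjusted p = 6.72e-05, edgeR). CDH3 had 1.89, 1.48, 1.72 and 0.744 CPM in poGC-CT, against 14.6, 16.01, 17.1 and 16.9 CPM in phGC-CT, and it fell likewise without overlap (log2 fold change -3.47, standard error 0.26, adjusted p = 5.51e-06). CDH2 had 319.6, 315, 315 and 333 CPM in poGC-CT, against 344, 322, 297 and 312 CPM in phGC-CT, with overlapping libraries and a log2 fold change of 0.01 (adjusted p = 0.908, standard error 0.056).

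In the other direction CDH4 had 32.98, 26.95, 27.8 and 29.3 CPM in poGC-CT, against 1.86, 3.104, 1.98 and 1.96 CPM in phGC-CT, and all poGC-CT libraries stood far above all phGC-CT libraries (log2 fold change 3.71, standard error 0.18, adjusted p = 3.66e-07). CDH13 had 187, 156, 169 and 165 CPM in poGC-CT, against 68.6, 52.6, 40.2 and 47.3 CPM in phGC-CT, and it rose as well (log2 fold change 1.69, standard error 0.15, adjusted p = 1.81e-05). By FPKM the main classical cadherins were therefore CDH2 with CDH4 at a lower level in poGC-CT, and CDH1 and CDH2 in phGC-CT.

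3 low cadherins fell at the later stage, none with overlapping libraries. CDH5 had 8.64, 7.94, 6.36 and 5.87 CPM in poGC-CT, against 16.9, 15.6, 11.4 and 14.2 CPM in phGC-CT (log2 fold change -1.02, standard error 0.17, adjusted p = 0.000622). CDH11 had 4.896, 6.22, 5.52 and 7.403 CPM in poGC-CT, against 18.5, 15.5, 13.2 and 14.9 CPM in phGC-CT (log2 fold change -1.37, standard error 0.16, adjusted p = 7.3e-05). CDH23 had 9.76, 8.73, 9.64 and 11.1 CPM in poGC-CT, against 22.2, 22.7, 20.1 and 19.95 CPM in phGC-CT (log2 fold change -1.11, standard error 0.10, adjusted p = 1.36e-05). In each of these genes the poGC-CT libraries stood below the phGC-CT libraries.

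5 cadherins that never reached 1 FPKM were called higher in poGC-CT. CDH8, a type II cadherin studied mostly in the brain, had 2.05, 2.29, 0.996 and 1.93 CPM in poGC-CT, against 0.3202, 0.0913, 0.192 and 0.246 CPM in phGC-CT (log2 fold change 3.08, standard error 0.41, adjusted p = 0.000188). CDH20 had 0.366, 0.851, 1.05 and 0.885 CPM in poGC-CT, against 0.256, 0.152, 0.192 and 0.0921 CPM in phGC-CT (log2 fold change 2.18, standard error 0.43, adjusted p = 0.00186), and it had to differ, since it entered the test only through its poGC counts. CDH8 entered the test mainly through its poGC counts. The values of CDH8 and CDH20 stand for few reads, and all poGC-CT libraries were above all phGC-CT libraries in both genes. CDH18 had 1.13, 0.873, 0.747 and 1.23 CPM in poGC-CT, against 0.3202, 0.517, 0.0959 and 0.215 CPM in phGC-CT (log2 fold change 1.77, standard error 0.44, adjusted p = 0.00652). CDH12 had 2.36, 2.16, 2.18 and 2.29 CPM in poGC-CT, against 1.44, 0.396, 0.927 and 0.645 CPM in phGC-CT (log2 fold change 1.40, standard error 0.35, adjusted p = 0.00708). CDH17, the cadherin of liver and intestine in mammals, had 2.76, 2.597, 2.66 and 2.58 CPM in poGC-CT, against 2.15, 0.913, 1.44 and 1.87 CPM in phGC-CT (log2 fold change 0.73, standard error 0.26, adjusted p = 0.0325). The call of CDH17 was lost when any poGC-CT replicate or phGC-CT replicate 3 was left out (adjusted p 0.0578 to 0.0717).

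Desmosomal genes did not move as a block. DSP had 909, 809.6, 866 and 891 CPM in poGC-CT, against 517, 361, 326 and 401 CPM in phGC-CT (log2 fold change 1.11, standard error 0.13, adjusted p = 0.000104). PKP2 had 173, 173, 187 and 174 CPM in poGC-CT, against 77.4, 87.4, 77.4 and 75.8 CPM in phGC-CT (log2 fold change 1.15, standard error 0.058, adjusted p = 5.21e-07). Both plaque genes rose at the later stage. The desmosomal cadherin DSG2, however, had 13.5, 13.9, 13.7 and 12.6 CPM in poGC-CT, against 57.5, 50.5, 35.4 and 42.7 CPM in phGC-CT and fell (log2 fold change -1.80, standard error 0.14, adjusted p = 8.46e-06). DSC2 had 3.12, 2.36, 3.103 and 2.897 CPM in poGC-CT, against 5.48, 5.39, 3.26 and 4.67 CPM in phGC-CT and fell as well (log2 fold change -0.71, standard error 0.20, adjusted p = 0.0111). JUP had 273, 288, 289.7 and 275 CPM in poGC-CT, against 393, 433, 478 and 444 CPM in phGC-CT and was lower in poGC-CT (log2 fold change -0.64, standard error 0.061, adjusted p = 2.66e-05). In these 5 genes the control groups did not overlap.

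The tight junction scaffolds TJP1 and TJP3 were higher in poGC-CT. TJP3 had 18.1, 17.4, 18.6 and 16.3 CPM in poGC-CT, against 7.65, 8.28, 8.35 and 7.71 CPM in phGC-CT (log2 fold change 1.14, standard error 0.077, adjusted p = 3.27e-06). TJP1 had 88.3, 59.7, 77.9 and 85.4 CPM in poGC-CT, against 67.4, 47.7, 34.1 and 49.9 CPM in phGC-CT (log2 fold change 0.64, standard error 0.20, adjusted p = 0.0218). The groups overlapped in TJP1, and its call was lost without poGC-CT replicate 1 or 4 or phGC-CT replicate 2 (adjusted p 0.0542 to 0.0559). Occludin had 5.49, 5.48, 5.23 and 4.79 CPM in poGC-CT, against 9.16, 15.4, 11.7 and 12.6 CPM in phGC-CT and fell (log2 fold change -1.22, standard error 0.15, adjusted p = 0.000131), without overlap. CTNNA1 was lower by a small margin, with 444, 460.4, 462 and 457 CPM in poGC-CT, against 492, 513, 493 and 503 CPM in phGC-CT (log2 fold change -0.13, standard error 0.04, adjusted p = 0.0155).

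Of the claudins, CLDN1 had 1194, 1184, 1007 and 1066 CPM in poGC-CT, against 459, 403, 503 and 468 CPM in phGC-CT and rose without overlap (log2 fold change 1.28, standard error 0.083, adjusted p = 2.38e-06). CLDN12 had 49.2, 47.6, 47.5 and 49.5 CPM in poGC-CT, against 29.6, 28.3, 27.8 and 24.3 CPM in phGC-CT, again a rise (log2 fold change 0.82, standard error 0.071, adjusted p = 1.45e-05). CLDN10 had 2.08, 2.99, 1.74 and 2.696 CPM in poGC-CT, against 13.5, 12.5, 14.005 and 16.03 CPM in phGC-CT and fell (log2 fold change -2.55, standard error 0.18, adjusted p = 4.3e-06). CLDN11 had 1.77, 2.05, 1.72 and 1.73 CPM in poGC-CT, against 5.06, 6.69, 4.99 and 6.14 CPM in phGC-CT and fell too (log2 fold change -1.65, standard error 0.15, adjusted p = 1.91e-05). CLDN5 had 20.96, 106, 119 and 108 CPM in poGC-CT, against 56.3, 63.2, 73.6 and 67.5 CPM in phGC-CT, and poGC-CT replicate 1 lay far under the other 3 libraries of its group. With all libraries CLDN5 had a log2 fold change of 0.44 (adjusted p = 0.399, standard error 0.44), and without poGC-CT replicate 1 of 0.77 (adjusted p = 0.000299).

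GJA1 had 532, 515, 539 and 507 CPM in poGC-CT, against 366, 362, 296 and 329.6 CPM in phGC-CT and rose by a smaller step than CLDN1 (log2 fold change 0.63, standard error 0.073, adjusted p = 8.38e-05). GJB5 had 0.141, 0.436, 0.134 and 0.121 CPM in poGC-CT, against 3.17, 3.29, 3.65 and 3.41 CPM in phGC-CT and fell to a few reads per library in poGC-CT (log2 fold change -4.00, standard error 0.41, adjusted p = 4e-05). It entered the test mainly through its phGC counts. GJB1 had 1.63, 1.13, 1.05 and 0.764 CPM in poGC-CT, against 0.416, 0.243, 0.608 and 0.399 CPM in phGC-CT and rose (log2 fold change 1.45, standard error 0.34, adjusted p = 0.00506). None of these 3 connexins overlapped between the control groups.

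GJA5, a connexin of arteries and of the heart's conduction system, was nearly restricted to poGC in these libraries. It had 6.92, 4.63, 6.82 and 5.31 CPM in poGC-CT, against 0.224, 0.243, 0 and 0.215 CPM in phGC-CT (log2 fold change 5.08, standard error 0.55, adjusted p = 5.48e-05) and passed the filter on low counts only through poGC, where its mean was 0.923 FPKM in poGC-CT. GJA4, which couples granulosa cells and oocyte in the mouse, had 0.675, 0.611, 0.6705 and 0.342 CPM in poGC-CT, against 0, 0.122, 0.1599 and 0.123 CPM in phGC-CT (log2 fold change 2.46, standard error 0.58, adjusted p = 0.00522) and also passed through poGC alone. Both genes therefore had to differ once they were tested. GJA9 had 0.4502, 0.153, 0.249 and 0.322 CPM in poGC-CT, against 1.09, 0.578, 0.576 and 0.737 CPM in phGC-CT, lower in poGC-CT (log2 fold change -1.35, standard error 0.38, adjusted p = 0.0127).

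GJC1 had 10.8, 10.7, 12.9 and 8.93 CPM in poGC-CT, against 13.1, 14.5, 12.9 and 13.8 CPM in phGC-CT (log2 fold change -0.33, standard error 0.12, adjusted p = 0.0341), a call that was lost without poGC-CT replicate 1, 2 or 4 or phGC-CT replicate 2 or 4 (adjusted p 0.072 to 0.0839). GJD3 had 21.2, 16.9, 19.5 and 13.2 CPM in poGC-CT, against 15.2, 15.5, 17.8 and 20.8 CPM in phGC-CT, with a log2 fold change of 0.03 (adjusted p = 0.893, standard error 0.16).

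Markers of other cells moved with stage as well. Of 7 markers of surface epithelium 6 were measured, CDH1 among them, and their summed FPKM was 28.7 to 36.6 in poGC-CT and 332 to 374 in phGC-CT, with none at 0. The epithelial keratins KRT19 (-4.67, standard error 0.10), KRT8 (-3.17, standard error 0.15) and KRT7 (-2.46, standard error 0.072) and the adhesion molecule EPCAM (-2.78, standard error 0.12) fell on the log2 scale beside CDH1, while the mesothelial gene MSLN rose (0.41, standard error 0.10). Of 10 fibroblast and smooth muscle markers, summing to 455 to 510 FPKM in poGC-CT and 1130 to 1258 in phGC-CT, 6 fell and 2 rose. LUM was among those that fell. With no poGC-CT library over the cutoff of the count filter, it was tested only through phGC-CT and had to differ. The 9 endothelial markers summed to 25.5 to 74.7 FPKM in poGC-CT and 48.7 to 56.8 FPKM in phGC-CT, with none at 0. CLDN5 was among them and made up much of these sums, with means of 41.3 FPKM in poGC-CT and 31.8 FPKM in phGC-CT. The endothelial markers were mixed, since CDH5 and EGFL7 fell while PECAM1 and ESAM rose. ESAM entered the test mainly through poGC-CT, where it is high. Of the 9, 5 reached a mean of 1 FPKM in poGC-CT and 4 in phGC-CT. VWF, KDR and TEK had means of 0.0488, 0.188 and 0.0554 FPKM in poGC-CT and 0.0473, 0.299 and 0.0331 FPKM in phGC-CT. PECAM1 and TIE1 had means of 25.5 and 24.0 CPM in poGC-CT and 11.3 and 13.5 CPM in phGC-CT. The part of such cells in the stage differences was not tested.

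**Figure D3:**
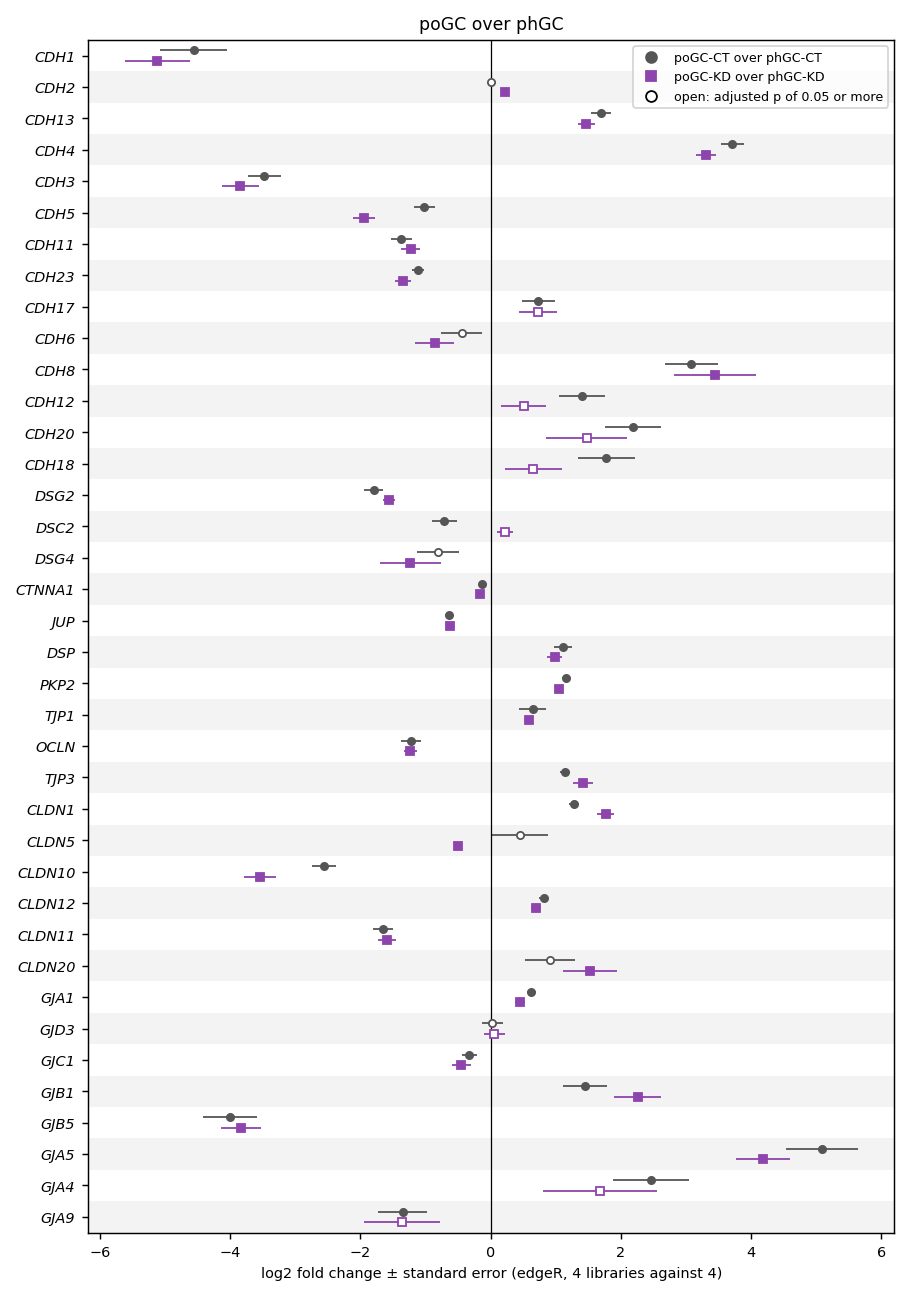
Log2 fold change of poGC over phGC with its standard error for 38 junction genes, in the control libraries (circles) and in the knockdown libraries (squares), 4 against 4. Filled symbols passed an adjusted p of 0.05, CDH1 at -4.56 and -5.12 is the lowest of the expressed genes, and CDH4 at 3.71 and 3.31 the highest of them.

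The stage comparison was repeated in the knockdown libraries, poGC-KD over phGC-KD, which shares no library with that of the controls. Of 46 genes tested 32 were called, 15 higher and 17 lower (69.6%, against 61.2% of all genes tested, 31.1% higher and 30.1% lower), and 31 did not overlap (58.2% of all genes). The genes called in both stage comparisons numbered 27, all in the same direction, which is 79.4% of those called in controls and 84.4% of those called in the knockdown. The same shares over all genes were not computed. With 64% and 61.2% of all genes called, the overlap is not shown to be particular to junction genes. CDH8 entered the test in the knockdown libraries only through poGC. Without it 31 of 45 genes were called (68.9%), and the 27 hold CDH8 and GJA5, 2 genes that had to differ in 1 of the comparisons. The 27 also hold GJB5, which entered both tests mainly through phGC, where it is high. Of the 7 called in controls alone, CDH12, CDH17, CDH20, GJA4 and GJA9 passed in the knockdown libraries when 1 library was left out (poGC-KD replicate 2 or a phGC-KD replicate, adjusted p 0.0104 to 0.0485), and CDH18 and DSC2 did not. GJA4 passed only without phGC-KD replicate 4, and CDH20 without phGC-KD replicate 2 or poGC-KD replicate 2. Without the phGC-KD replicate named, no phGC-KD library of the gene was over the cutoff of the count filter. In these fits both genes entered only through poGC-KD, where they are high, and had to differ. The median log2 fold change was 0.124 over the 46 genes and 0.00334 over all.

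CDH1 had 3.45, 2.12, 3.33 and 5.602 CPM in poGC-KD, against 219, 144, 76.6 and 59.9 CPM in phGC-KD (log2 fold change -5.12, standard error 0.50, adjusted p = 2.33e-05). CDH3 had 0.888, 0.7496, 0.771 and 1.55 CPM in poGC-KD, against 11.1, 12.4, 18.1 and 14.9 CPM in phGC-KD (log2 fold change -3.84, standard error 0.28, adjusted p = 3.57e-06). CDH4 had 28.2, 26.3, 29.3 and 28.4 CPM in poGC-KD, against 3.21, 2.49, 3.44 and 2.08 CPM in phGC-KD (log2 fold change 3.31, standard error 0.16, adjusted p = 2.39e-07). None of them overlapped between the stages. CDH13 had 150.4, 186, 178 and 215 CPM in poGC-KD, against 69.9, 74.5, 55.01 and 62.1 CPM in phGC-KD (log2 fold change 1.47, standard error 0.13, adjusted p = 1.27e-05). CDH5 had 2.004, 2.31, 2.12 and 2.63 CPM in poGC-KD, against 7.41, 10.1, 10.2 and 7.01 CPM in phGC-KD (log2 fold change -1.94, standard error 0.18, adjusted p = 1.44e-05). CDH11 had 2.75, 3.598, 2.87 and 3.56 CPM in poGC-KD, against 7.73, 6.899, 8.59 and 6.56 CPM in phGC-KD (log2 fold change -1.23, standard error 0.15, adjusted p = 9.6e-05). CDH13 rose, and CDH5 and CDH11 fell. CDH23 had 6.36, 6.08, 6.29 and 7.35 CPM in poGC-KD, against 18.4, 12.97, 16.3 and 18.1 CPM in phGC-KD (log2 fold change -1.34, standard error 0.12, adjusted p = 1.75e-05). CDH8 had 0.951, 1.28, 0.929 and 1.34 CPM in poGC-KD, against 0, 0.0995, 0.199 and 0.119 CPM in phGC-KD (log2 fold change 3.44, standard error 0.62, adjusted p = 0.00114), and it had to differ, since it was tested only through its poGC counts.

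DSP had 1058, 1076, 1007 and 1141 CPM in poGC-KD, against 679, 498, 482 and 493 CPM in phGC-KD (log2 fold change 0.98, standard error 0.11, adjusted p = 6.61e-05). PKP2 had 163, 166, 155 and 160.3 CPM in poGC-KD, against 81.9, 72.3, 81.05 and 74.1 CPM in phGC-KD (log2 fold change 1.05, standard error 0.055, adjusted p = 4.53e-07). DSG2 had 13.8, 16.2, 15.1 and 16.4 CPM in poGC-KD, against 50.7, 45.5, 41.5 and 42.3 CPM in phGC-KD (log2 fold change -1.56, standard error 0.094, adjusted p = 1.04e-06). As in controls, the plaque genes DSP and PKP2 were higher in poGC and the cadherin DSG2 lower. DSC2, in contrast, had 5.52, 5.38, 4.45 and 4.78 CPM in poGC-KD, against 4.24, 4.05, 4.15 and 4.78 CPM in phGC-KD (log2 fold change 0.22, standard error 0.12, adjusted p = 0.16) and did not pass the test. OCLN had 5.89, 5.504, 5.03 and 5.11 CPM in poGC-KD, against 11.4, 12.5, 13.9 and 12.5 CPM in phGC-KD (log2 fold change -1.24, standard error 0.10, adjusted p = 6.86e-06), without overlap. TJP3 had 26.1, 18.4, 17.5 and 16.2 CPM in poGC-KD, against 7.103, 6.53, 7.56 and 7.84 CPM in phGC-KD (log2 fold change 1.42, standard error 0.15, adjusted p = 3.84e-05). Smaller differences were called for TJP1 (0.59), JUP (-0.62) and CTNNA1 (-0.17) on the log2 scale.

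CLDN1 had 826, 928, 942 and 1057 CPM in poGC-KD, against 239.7, 228, 288 and 341 CPM in phGC-KD (log2 fold change 1.77, standard error 0.13, adjusted p = 4.74e-06). CLDN10 had 0.703, 1.07, 1.31 and 1.12 CPM in poGC-KD, against 9.08, 16.1, 11.5 and 12.4 CPM in phGC-KD (log2 fold change -3.54, standard error 0.25, adjusted p = 2.88e-06). CLDN11 had 2.48, 2.76, 3.296 and 2.63 CPM in poGC-KD, against 7.93, 9.49, 7.65 and 8.55 CPM in phGC-KD (log2 fold change -1.60, standard error 0.14, adjusted p = 1.15e-05). CLDN1 was higher and the other two lower in poGC-KD, without overlap. CLDN12 had 47.1, 48.7, 47.5 and 48.4 CPM in poGC-KD, against 30.6, 25.2, 30.4 and 31.1 CPM in phGC-KD (log2 fold change 0.70, standard error 0.074, adjusted p = 4.06e-05). CLDN5 had 72.7, 68.7, 75.4 and 65.4 CPM in poGC-KD, against 105, 102, 92.9 and 96.99 CPM in phGC-KD and was lower in poGC-KD (log2 fold change -0.50, standard error 0.064, adjusted p = 0.000135). A fit that included the spread of all 16 libraries did not call it (adjusted p = 0.219). That spread takes in poGC-CT replicate 1 (20.96 CPM), a library outside this comparison. The faint CLDN20 had 0.372, 0.664, 0.543 and 0.689 CPM in poGC-KD, against 0.282, 0.133, 0.256 and 0.0891 CPM in phGC-KD (log2 fold change 1.53, standard error 0.41, adjusted p = 0.00998), and in controls it passed only without poGC-CT replicate 2 or phGC-CT replicate 4 (adjusted p 0.0264 to 0.0447).

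GJA5 had 6.59, 5.33, 5.504 and 4.503 CPM in poGC-KD, against 0.282, 0.298, 0.0853 and 0.535 CPM in phGC-KD (log2 fold change 4.18, standard error 0.41, adjusted p = 2.66e-05). GJB5 had 0.186, 0.257, 0.0876 and 0.194 CPM in poGC-KD, against 2.63, 2.26, 2.84 and 2.58 CPM in phGC-KD (log2 fold change -3.83, standard error 0.31, adjusted p = 7.15e-06). GJB1 had 2.27, 2.51, 2.14 and 2.26 CPM in poGC-KD, against 0.174, 0.531, 0.569 and 0.653 CPM in phGC-KD (log2 fold change 2.26, standard error 0.36, adjusted p = 0.000493). The first and the last of these connexins rose and GJB5 fell. GJA1 was called at a log2 fold change of 0.45 (adjusted p = 0.000571, standard error 0.073), CDH2 at 0.22 (adjusted p = 0.00628, standard error 0.053) and GJC1 at -0.45 (adjusted p = 0.0237, standard error 0.15), where GJC1 lost the call without poGC-KD replicate 2 or 3 or phGC-KD replicate 1, 2 or 4 (adjusted p 0.053 to 0.0666). Among genes under 1 FPKM, CDH6 had 0.971, 1.05, 0.508 and 0.905 CPM in poGC-KD, against 1.2599, 2.26, 1.31 and 1.37 CPM in phGC-KD (log2 fold change -0.86, standard error 0.30, adjusted p = 0.0342). DSG4 had 0.124, 0.0642, 0.281 and 0.237 CPM in poGC-KD, against 0.304, 0.398, 0.398 and 0.594 CPM in phGC-KD (log2 fold change -1.24, standard error 0.47, adjusted p = 0.0447). Both fell, CDH6 losing its call without poGC-KD replicate 1, 3 or 4 or phGC-KD replicate 2 (adjusted p 0.0524 to 0.0929), and DSG4 without poGC-KD replicate 1, 2 or 4 or phGC-KD replicate 2, 3 or 4 (0.0561 to 0.121). In controls DSG4 passed only without poGC-CT replicate 4 or phGC-CT replicate 3 (0.0244 to 0.0412).

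The knockdown was compared with its control within each cell type. In comp. poGC 45 junction genes were tested and 13 were called, 6 higher and 7 lower in poGC-KD. This is 28.9%, against 28.8% of all 14379 genes tested (15.2% higher and 13.6% lower), a share near that of the whole transcriptome. At a fold change above 1.5 beside the adjusted p, 7 of the 45 remained, or 15.6% against 9.48% of all genes. The groups did not overlap for 15 of them, against 31.9% of all genes. By the criteria of the study, an unadjusted p under 0.05 together with a fold above 1.5, 12 qualified, 3 higher and 9 lower, which is 26.7% against 11.2% of all genes. The median log2 fold change was -0.24 over the 45 and 0.00937 over all genes tested, and 30 of the 45 had a negative value, called or not.

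Cadherins called in poGC all fell. CDH5 had 2.004, 2.31, 2.12 and 2.63 CPM in poGC-KD, against 8.64, 7.94, 6.36 and 5.87 CPM in poGC-CT, without overlap (log2 fold change -1.65, standard error 0.16, adjusted p = 0.000115). CDH11 had 2.75, 3.598, 2.87 and 3.56 CPM in poGC-KD, against 4.896, 6.22, 5.52 and 7.403 CPM in poGC-CT (log2 fold change -0.90, standard error 0.16, adjusted p = 0.00326). CDH23 had 6.36, 6.08, 6.29 and 7.35 CPM in poGC-KD, against 9.76, 8.73, 9.64 and 11.1 CPM in poGC-CT (log2 fold change -0.57, standard error 0.10, adjusted p = 0.00323). In both genes every poGC-KD library lay below every poGC-CT library.

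CDH1 had 3.45, 2.12, 3.33 and 5.602 CPM in poGC-KD, against 18.3, 19.6, 5.82 and 4.08 CPM in poGC-CT. The poGC-CT libraries spread widely, with replicates 1 and 2 high and replicates 3 and 4 low, and poGC-KD replicate 4 exceeded poGC-CT replicate 4. It was called lower (log2 fold change -1.70, standard error 0.54, adjusted p = 0.0439, edgeR), but not without poGC-KD replicate 1, 2 or 3 or poGC-CT replicate 1 or 2 (log2 fold change -1.69 to -1.38, adjusted p 0.0922 to 0.108). CDH2 had 344, 329, 324 and 336 CPM in poGC-KD, against 319.6, 315, 315 and 333 CPM in poGC-CT, with a log2 fold change of 0.07 (adjusted p = 0.196, standard error 0.037).

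The desmosomal genes DSC2 and DSP rose in poGC-KD. DSC2 had 5.52, 5.38, 4.45 and 4.78 CPM in poGC-KD, against 3.12, 2.36, 3.103 and 2.897 CPM in poGC-CT, without overlap (log2 fold change 0.82, standard error 0.14, adjusted p = 0.0023). DSP had 1058, 1076, 1007 and 1141 CPM in poGC-KD, against 909, 809.6, 866 and 891 CPM in poGC-CT, again without overlap (log2 fold change 0.32, standard error 0.053, adjusted p = 0.00255). JUP had 248, 224, 238 and 232 CPM in poGC-KD, against 273, 288, 289.7 and 275 CPM in poGC-CT and fell by a small step (log2 fold change -0.24, standard error 0.043, adjusted p = 0.00357). CTNNA1 had 498, 481, 484 and 503 CPM in poGC-KD, against 444, 460.4, 462 and 457 CPM in poGC-CT and rose by the smallest step (log2 fold change 0.12, standard error 0.033, adjusted p = 0.0221). The call of CTNNA1 was lost when any 1 of the 8 libraries was left out (adjusted p 0.0504 to 0.0888), and that of DSP was lost in the fit of all 16 libraries (0.113).

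2 claudins were called in poGC, in opposite directions. CLDN10 had 0.703, 1.07, 1.31 and 1.12 CPM in poGC-KD, against 2.08, 2.99, 1.74 and 2.696 CPM in poGC-CT and fell (log2 fold change -1.16, standard error 0.25, adjusted p = 0.00801). CLDN11 had 2.48, 2.76, 3.296 and 2.63 CPM in poGC-KD, against 1.77, 2.05, 1.72 and 1.73 CPM in poGC-CT and rose (log2 fold change 0.63, standard error 0.14, adjusted p = 0.0101). Neither overlapped between the groups. CLDN1 had 826, 928, 942 and 1057 CPM in poGC-KD, against 1194, 1184, 1007 and 1066 CPM in poGC-CT (log2 fold change -0.23, standard error 0.081, adjusted p = 0.0645), and it passed without poGC-KD replicate 4 or poGC-CT replicate 3 (adjusted p 0.0242 to 0.0437). CLDN5 had 72.7, 68.7, 75.4 and 65.4 CPM in poGC-KD, against 20.96, 106, 119 and 108 CPM in poGC-CT, so that the poGC-KD libraries lay below 3 poGC-CT libraries and above replicate 1. Its log2 fold change was -0.31 (adjusted p = 0.642, standard error 0.43) with all libraries and -0.65 (adjusted p = 0.000568) without poGC-CT replicate 1.

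Of the connexins GJA1, the abundant one, had 352, 419, 400.4 and 433 CPM in poGC-KD, against 532, 515, 539 and 507 CPM in poGC-CT and fell (log2 fold change -0.37, standard error 0.063, adjusted p = 0.00268). GJB1 had 2.27, 2.51, 2.14 and 2.26 CPM in poGC-KD, against 1.63, 1.13, 1.05 and 0.764 CPM in poGC-CT and rose (log2 fold change 1.02, standard error 0.23, adjusted p = 0.0102). Both groups were apart in these genes. GJC1 and GJD3 had log2 fold changes of -0.42 (adjusted p = 0.0613, standard error 0.15) and -0.32 (adjusted p = 0.139, standard error 0.15). GJC1 passed the test without poGC-CT replicate 4 (-0.52, adjusted p = 0.0387), as did GJD3 (-0.45, adjusted p = 0.0246). GJB5 had too few counts in poGC for this test. The other expressed junction genes that were not called, CDH3, CDH4, CDH13, CLDN12, DSG2, OCLN, PKP2, TJP1 and TJP3, had log2 fold changes of -0.54 (CDH3) to 0.23 (TJP1), of which DSG2 passed without poGC-KD replicate 1 (0.25, adjusted p = 0.0269) and PKP2 without poGC-CT replicate 2 (-0.14, adjusted p = 0.0479).

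**Figure D4:**
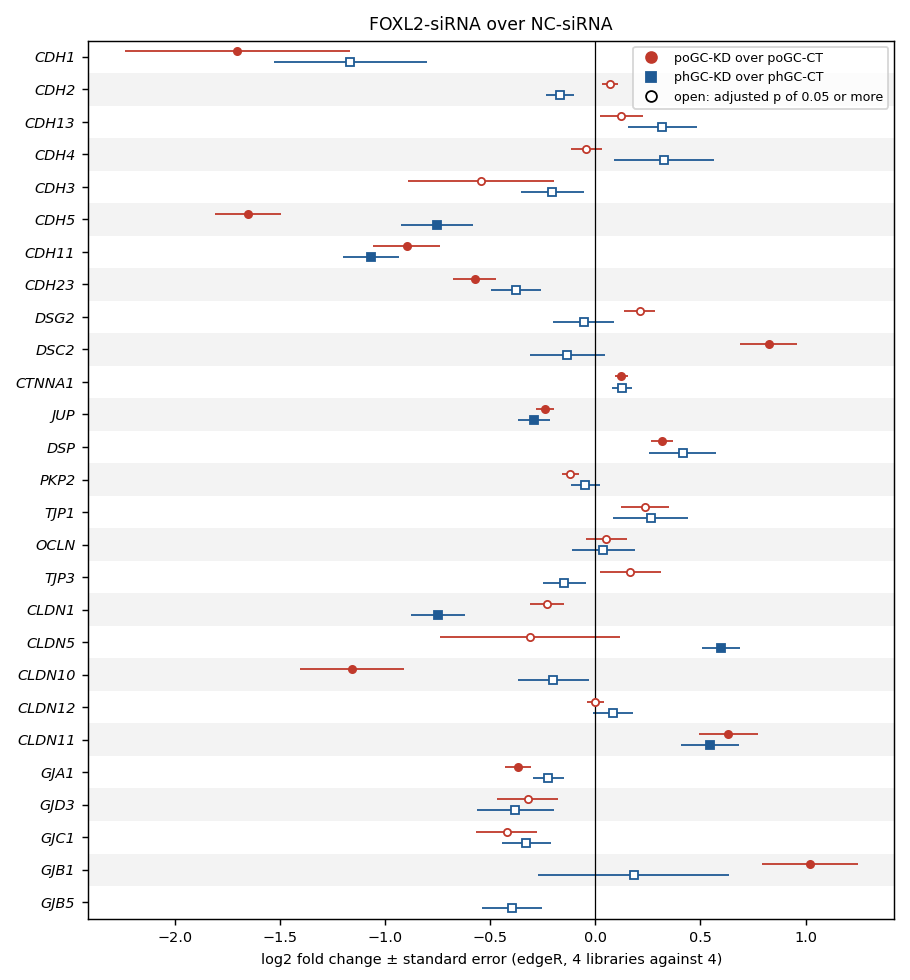
Log2 fold change of FOXL2-siRNA over NC-siRNA with its standard error for 27 expressed junction genes, in poGC (circles) and in phGC (squares), 4 libraries against 4. Filled symbols passed an adjusted p of 0.05, with CDH5 (-1.65 in poGC and -0.75 in phGC) and CDH11 (-0.90 and -1.07) filled on the left in both.

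In comp. phGC 42 junction genes were tested and 7 were called, 3 higher and 4 lower in phGC-KD. This is 16.7%, against 9.97% of all 13829 genes tested (5.06% higher and 4.91% lower). The groups did not overlap for 14 of the 42, against 18.3% of all genes. By the criteria of the study 5 qualified, or 11.9% against 7.27%. The median log2 fold change was -0.177 over the 42 and -0.00582 over all genes. The count of 7 fell to 3 or 4 when any phGC-KD replicate or phGC-CT replicate 2 or 4 was left out, and was 5 without phGC-CT replicate 3 and 8 without phGC-CT replicate 1.

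CDH11 fell again in phGC. It had 7.73, 6.899, 8.59 and 6.56 CPM in phGC-KD, against 18.5, 15.5, 13.2 and 14.9 CPM in phGC-CT, without overlap (log2 fold change -1.07, standard error 0.13, adjusted p = 0.00233). CDH5 had 7.41, 10.1, 10.2 and 7.01 CPM in phGC-KD, against 16.9, 15.6, 11.4 and 14.2 CPM in phGC-CT, likewise without overlap (log2 fold change -0.75, standard error 0.17, adjusted p = 0.0266). The call of CDH5 was lost without phGC-KD replicate 1 or 4 or phGC-CT replicate 2 or 4 (adjusted p 0.0654 to 0.0752).

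CDH1 had 219, 144, 76.6 and 59.9 CPM in phGC-KD, against 229, 275, 312 and 300.4 CPM in phGC-CT. All phGC-KD libraries lay below all phGC-CT libraries, phGC-KD replicate 1 only just, and the knockdown libraries differed from each other by more than 3 times. With this spread it missed the threshold (log2 fold change -1.17, standard error 0.37, adjusted p = 0.0799, edgeR), while it passed without phGC-KD replicate 1 (log2 fold change -1.59, adjusted p = 0.0232). CDH23 had 18.4, 12.97, 16.3 and 18.1 CPM in phGC-KD, against 22.2, 22.7, 20.1 and 19.95 CPM in phGC-CT (log2 fold change -0.38, standard error 0.12, adjusted p = 0.082). CDH2 had 289, 259, 296 and 296 CPM in phGC-KD, against 344, 322, 297 and 312 CPM in phGC-CT (log2 fold change -0.17, standard error 0.066, adjusted p = 0.144). Both were apart between the groups but not called.

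CLDN1 had the highest FPKM in phGC-CT of the junction genes called in phGC. It had 239.7, 228, 288 and 341 CPM in phGC-KD, against 459, 403, 503 and 468 CPM in phGC-CT and fell without overlap (log2 fold change -0.75, standard error 0.13, adjusted p = 0.00914). CLDN5 had 105, 102, 92.9 and 96.99 CPM in phGC-KD, against 56.3, 63.2, 73.6 and 67.5 CPM in phGC-CT and rose without overlap (log2 fold change 0.60, standard error 0.091, adjusted p = 0.0051). The fit of all 16 libraries did not call CLDN5 (adjusted p = 0.241). Its estimate of the spread takes in poGC-CT replicate 1 (20.96 CPM), a library outside this comparison. CLDN11 had 7.93, 9.49, 7.65 and 8.55 CPM in phGC-KD, against 5.06, 6.69, 4.99 and 6.14 CPM in phGC-CT and rose as in poGC (log2 fold change 0.55, standard error 0.14, adjusted p = 0.0391), a call lost when any phGC-KD replicate or phGC-CT replicate 1, 3 or 4 was left out (adjusted p 0.0597 to 0.0975). CLDN10, called in poGC, had 9.08, 16.1, 11.5 and 12.4 CPM in phGC-KD, against 13.5, 12.5, 14.005 and 16.03 CPM in phGC-CT here (log2 fold change -0.20, standard error 0.17, adjusted p = 0.491).

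JUP had 329, 351, 374 and 385 CPM in phGC-KD, against 393, 433, 478 and 444 CPM in phGC-CT and fell (log2 fold change -0.29, standard error 0.076, adjusted p = 0.0449). The groups were apart, but JUP lost its call without any phGC-KD replicate or phGC-CT replicate 2, 3 or 4 (adjusted p 0.0613 to 0.129). DSP had 679, 498, 482 and 493 CPM in phGC-KD, against 517, 361, 326 and 401 CPM in phGC-CT (log2 fold change 0.41, standard error 0.16, adjusted p = 0.143), with phGC-KD replicate 1 and phGC-CT replicate 1 each the highest of its group, and it passed without phGC-CT replicate 1 (0.56, adjusted p = 0.0354). GJA1 had 304, 283, 285 and 294 CPM in phGC-KD, against 366, 362, 296 and 329.6 CPM in phGC-CT (log2 fold change -0.22, standard error 0.074, adjusted p = 0.094), and it was called without phGC-CT replicate 3 (-0.29, adjusted p = 0.0264). None of the 9 connexins tested in phGC was called by edgeR, and 3 of them, GJA1, GJB5 and GJC1, had an unadjusted p under 0.05. The other expressed genes had log2 fold changes of -0.40 (GJB5) to 0.33 (CDH4), among them CDH13 (0.32), which passed without phGC-CT replicate 1 (0.48, adjusted p = 0.0488), CTNNA1 (0.13) and DSC2 (-0.13).

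The comparisons of both cell types share no library. CDH5, CDH11, CLDN11 and JUP were among 5 genes called in both, each in the same direction, which is 38.5% of the genes called in poGC and 71.4% of those called in phGC. The same shares over all genes were not computed, so that these are not shown to be particular to junction genes. The summed FPKM of 10 fibroblast and smooth muscle markers was 256 to 308 in poGC-KD, against 455 to 510 in poGC-CT, and 929 to 1127 in phGC-KD, against 1130 to 1258 in phGC-CT. Of the 9 tested in poGC, ACTA2, COL3A1 and DCN fell and COL1A1 and MYH11 rose, and of the 10 tested in phGC ACTA2 fell. COL3A1 had means of 517 CPM in poGC-KD and 958 CPM in poGC-CT, and ACTA2 of 395 and 894 CPM. COL1A2 (277 and 293 CPM) and PDGFRB (36.7 and 37.7 CPM) differed little, so that the sum does not stand for each of its genes. Beside the fall of CDH5 and the values of CLDN5, both among the 9 endothelial markers, these summed to 67.0 to 73.9 FPKM in poGC-KD, against 25.5 to 74.7 in poGC-CT, and 81.4 to 91.7 in phGC-KD, against 48.7 to 56.8 in phGC-CT. CLDN5 alone had means of 34.1 FPKM in poGC-KD, 41.3 in poGC-CT, 48.7 in phGC-KD and 31.8 in phGC-CT. The sums are therefore no separate measure beside CLDN5. The endothelial gene EGFL7 rose in poGC (log2 fold change 1.68, standard error 0.071, adjusted p = 2.83e-06) and in phGC (log2 fold change 1.16, standard error 0.11, adjusted p = 0.000859), and VWF, KDR and TEK stayed at means of 0.0198 to 0.358 FPKM over the 4 groups. PECAM1 had means of 8.49 to 25.5 CPM and TIE1 of 9.05 to 24.0 CPM over the same groups. Beside the lower CDH1 values, the 6 markers of surface epithelium summed to 52.8 to 57.4 FPKM in poGC-KD, against 28.7 to 36.6 in poGC-CT, and 359 to 417 in phGC-KD, against 332 to 374 in phGC-CT. CDH1 itself is part of these sums, with means of 41.96 FPKM in phGC-KD and 93.1 FPKM in phGC-CT. The keratin gene KRT19 rose in poGC (log2 fold change 2.26, standard error 0.078, adjusted p = 1.54e-06) and in phGC (log2 fold change 0.59, standard error 0.084, adjusted p = 0.00392). The part of such cells in the knockdown differences was not tested.

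**Figure D5:**
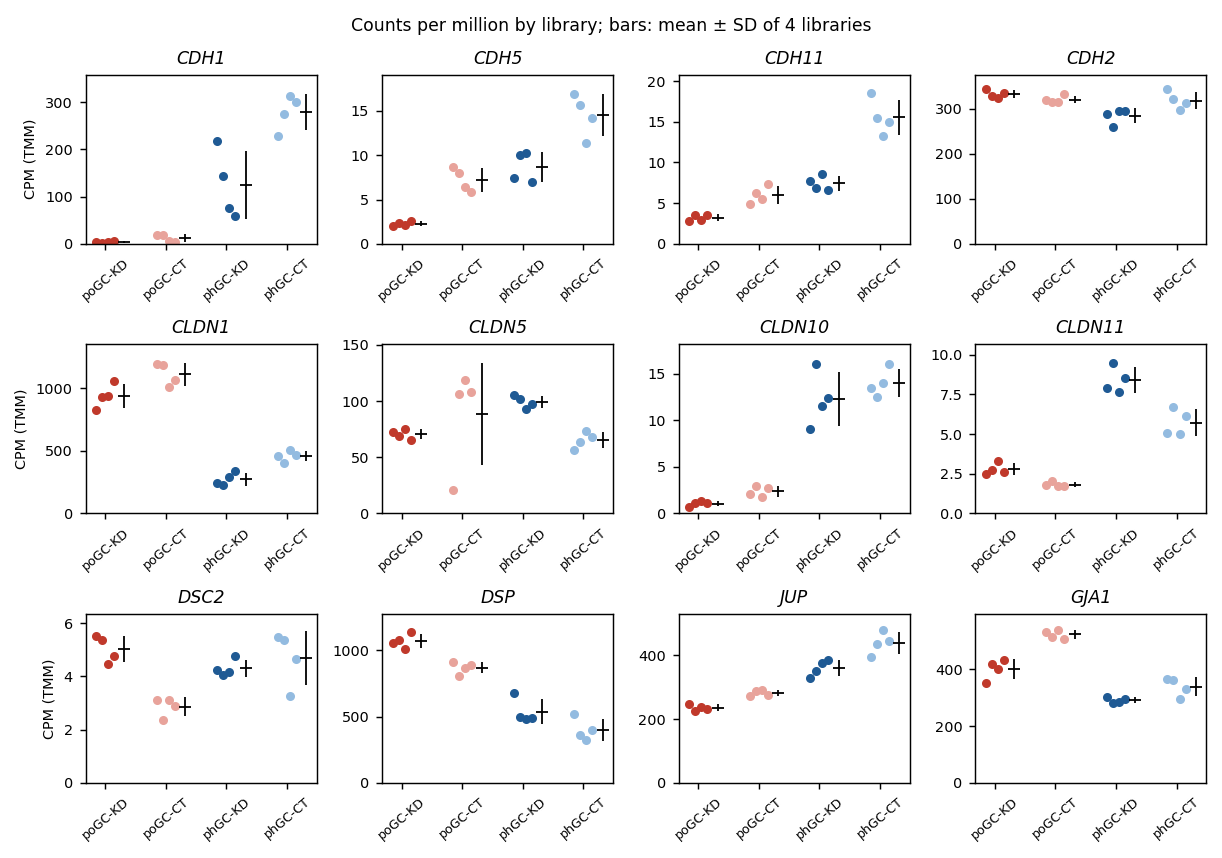
CPM of 12 junction genes in each library (points in replicate order, mean ± SD of 4 libraries beside them). CDH1 is lower in both poGC groups than in phGC and scatters within phGC-KD (59.9 to 219 CPM), CDH2 differs little between the groups, and CLDN5 has 1 low poGC-CT library at 21.0 CPM.

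Whether the knockdown effect differed between the cell types was tested by an interaction term over all 16 libraries. A positive value means a higher log2 fold change in poGC than in phGC, which for a gene that fell in both is a smaller fall in poGC. Of 49 junction genes 2 were called (4.08%, against 9.25% of all 14775 genes tested), and 5 had an unadjusted p under 0.05 (21.7% of all genes). CDH5 fell more in poGC than in phGC by a log2 difference of -0.92 (adjusted p = 0.0237, standard error 0.24). This call was lost without poGC-CT replicate 1 (adjusted p = 0.0524) or phGC-KD replicate 3 (0.0512). It was lost as well on the log2(FPKM + 1) scale, where the difference was -0.19 (adjusted p = 0.518, limma). With group means of 0.414 to 2.73 FPKM, adding 1 by itself narrows the difference, so that this scale cannot decide about CDH5. DSC2 rose in poGC and had a log2 fold change of -0.13 in phGC, a log2 difference of 0.94 (adjusted p = 0.0157, standard error 0.22). CLDN10 had a log2 difference of -0.98 (adjusted p = 0.0528, standard error 0.30), and it passed without poGC-KD replicate 3, poGC-CT replicate 3 or phGC-KD replicate 1 (adjusted p 0.0316 to 0.0423). CLDN1 had 0.49 (adjusted p = 0.0789, standard error 0.17), and it passed without phGC-KD replicate 4 (0.0149). CDH2 had 0.22 (adjusted p = 0.0899, standard error 0.075), and it passed without phGC-CT replicate 3 (0.043). The count of 2 was 1 without phGC-KD replicate 3 and 2 or 3 without any other library. CLDN5 had -0.94 (adjusted p = 0.274, standard error 0.47) with all libraries and -1.27 (adjusted p = 2.79e-05) without poGC-CT replicate 1. For the other members an effect of different size in poGC and phGC was not shown.

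The junction genes act with partners from 5 further lists, for which log2 fold changes of called genes are given in brackets. Their counts stand beside 28.8% of all genes called in poGC and 9.97% in phGC. Of 14 catenins and plaque partners measured, 1 rose and 5 fell in poGC-KD, with CTNNAL1, a relative of alpha-catenin (-0.61), and the plakophilin PKP3 (-1.04) past a fold of 1.5, and 1 fell in phGC-KD (median log2 fold changes -0.0419 and -0.166). PKP3 was faint, with means of 0.443 CPM in poGC-KD and 0.923 CPM in poGC-CT. Of 20 tight junction and polarity partners tested, 6 rose and 4 fell in poGC-KD and 3 rose and 2 fell in phGC-KD (medians 0.0821 and 0.0902, against 0.00937 and -0.00582 over all genes). INADL, a scaffold of the Crumbs complex, rose in poGC (1.17) and in phGC (0.97), as did its partners CRB2 (0.91) and MPP5 (0.60) in poGC. PARD6B (-0.59) and PRKCI (-0.67), which act together in the Par polarity complex, fell in poGC-KD. Of 6 nectins, JAMs and other adhesion molecules 1 rose and 1 fell in poGC-KD and none was called in phGC-KD (medians 0.178 and 0.0691). Neither of the 2 pannexins tested was called in either cell type (medians -0.275 and -0.456).

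By stage 64% of all genes were called in controls, and the partner counts stand beside that share. Of 20 tight junction and polarity partners 10 rose and 4 fell in poGC-CT relative to phGC-CT (median 0.323, against 0.00362 over all genes), led by MAGI1 (2.32), PARD6B (2.18) and PARD3 (2.02), while CRB2 fell (-2.21). Of 14 catenins and plaque partners 5 rose and 5 fell (median 0.0706), and the desmosomal plaque gene PPL, which binds keratins, fell (-3.63). PKP3, which rose, and PKP1, which fell, entered the test mainly through the group where each is high. CXADR (-0.63) and EPCAM (-2.78) fell among the adhesion molecules, of which 1 rose and 3 fell (median -0.422). The 1 that rose, ESAM, entered the test mainly through poGC-CT. Of the 8 tested transcription factors known to act on cadherin and junction genes, 4 rose, namely ZEB2 (2.12), ZEB1 (0.64), SNAI2 (0.88) and KLF4 (0.97). Another 3 fell, SNAI1 (-1.07) and GRHL1 among them, with a median of 0.25 over the list. TWIST1 had means of 15.5 CPM in poGC-CT and 21.5 CPM in phGC-CT. Between poGC-KD and phGC-KD 5 of 10 tested genes of the list rose and 5 fell (median -0.365). ZEB1, ZEB2 and GRHL3 were among those that rose there, and GRHL1, OVOL2, SNAI1, TWIST1 and TWIST2 fell. TWIST2, with no poGC-KD library over the cutoff of the count filter, was tested only through phGC-KD and had to differ. OVOL2 entered the test mainly through phGC-KD, where it is high. Among the factors known to act on CDH1 in mammals, ZEB1, ZEB2, SNAI1 and SNAI2 are repressors and KLF4 is an activator. The part of these factors in the CDH1 values was not tested. In poGC-KD relative to poGC-CT, TWIST1 (-1.29) and KLF4 (-0.81) fell and GRHL3 (0.61) rose. In all, 2 of 8 rose and 3 fell in that comparison (median -0.00845). SNAI2 had means of 19.4 CPM in poGC-KD and 29.0 CPM in poGC-CT, and ZEB1 of 33.3 and 23.7 CPM. In phGC-KD relative to phGC-CT none of 9 was called (median 0.141).

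The remaining junction genes were faint. 11 were under 1 FPKM in every group but called in some comparison (CDH6, CDH8, CDH12, CDH17, CDH18, CDH20, CLDN20, GJA4, GJA5, GJA9 and DSG4), with highest group means of 0.061 to 0.923 FPKM. The last 28 were neither expressed nor called, with highest group means of 0.00228 to 0.334 FPKM and 2 to 608 counts over all libraries, and only 4 of them had a count in each of the 16 libraries. Among them were the cadherins CDH7, CDH9, CDH10, CDH15, CDH19 and CDH22, the claudins CLDN2, CLDN3, CLDN4, CLDN8, CLDN9, CLDN14 to CLDN19, CLDN23, CLDN25 and CLDN34, and the connexins GJA3, GJA10, GJB2, GJB6, GJD2 and GJD4. Well known from other tissues are CLDN3 and CLDN4, claudins of many epithelia, and GJB2, a connexin of the mammalian inner ear and skin.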

How the data were processed

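Polyadenylated RNA of 16 cultures was sequenced as paired ends. The authors deposited, for each library, whole read counts per gene and FPKM (fragments scaled to transcript length and to the mapped fragments of the library). The methods of the study name TopHat2 and the Ensembl Gallus_gallus-5.0 genome, while the submitters' processing notes name HISAT2 2.1.0, StringTie 1.3.4d and DESeq2 1.26.0, and the program that counted reads, the annotation and the use of strand are not given in the sources used here. Reads of overlapping or antisense genes can therefore not be told apart. FPKM sums differed between the stages, so that stages were tested on counts. Levels, family shares and marker sums given as FPKM for both stages were not corrected for this and are descriptions only.

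Counts were tested with edgeR 4.0.16 in R 4.3.3 (TMM factors, filterByExpr, quasi-likelihood F-test, Benjamini-Hochberg adjustment over all genes tested), with 4 libraries against 4 for the knockdown in each cell type and for stage in each siRNA arm, and with all 16 libraries for the interaction. Calls were made at an adjusted p under 0.05. Alternatives were upper-quartile and DESeq2 size factors, the DESeq2 1.42.0 test, filters of at least 1 count or a mean of 10 counts, a replicate block, 1 fit of all 16 libraries, poGC counts thinned to phGC totals, limma 3.58.1 on log2(FPKM + 1), and leaving out each library. Expression was also counted at 0.5 and 2 FPKM.

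Of the genes that matched the symbol rule, those with at least 1 FPKM in a group or called in a comparison were described, and those called with a fold change above 1.5 were given by library. Some of the 68 genes enter the counts but are not reported here by name. Of the partner lists, genes called with a fold change above 1.5 could be named, and those named are a selection made after their values were seen. The members, partner lists and marker lists were chosen with earlier results of these data known. Of the 68 symbols 65 were found in the RefSeq gene table, CLDN17 and DSC2 were not, and GJC1 stood there only as a synonym. On simulated counts modelled on comp. poGC, 42 of 100 genes changed by a fold of 1.5 and 73 of 98 changed by a fold of 2 were called, with 8 false calls among 14411 genes tested. For the interaction these numbers were 8 of 99, 49 of 98 and 3 false calls among 14722 genes.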

Additional observations from a re-analysis of the deposited data

Results flagged for a closer look

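In 12 of 152 sets of 4 libraries (38 described genes in 4 groups), 1 library lay far from the other 3 by Dixon's criterion, where chance flags about 1 in 20 sets. CLDN5 had 20.96 CPM in poGC-CT replicate 1, against 105.9 to 118.7 CPM in the other 3 libraries of the group, the only such case that decided whether a comparison passed its test in 3 comparisons. DSP had 678.7 CPM in phGC-KD replicate 1, against 481.9 to 498.1 CPM. PKP2 had 186.7 CPM in poGC-CT replicate 3, against 172.7 to 174.3 CPM, and 87.39 CPM in phGC-CT replicate 2, against 75.77 to 77.38 CPM. In phGC-CT replicate 2 CDH4 had 3.104 CPM, against 1.857 to 1.982 CPM, and in poGC-CT replicate 2 CLDN11 had 2.052 CPM, against 1.724 to 1.773 CPM. In the same poGC-CT library GJB5 had 0.4365 CPM, against 0.1207 to 0.1407 CPM. CDH6 had 2.256 CPM in phGC-KD replicate 2, against 1.2599 to 1.366 CPM, and 2.466 CPM in phGC-CT replicate 1, against 1.151 to 1.351 CPM. On the low side were GJC1 at 8.699 CPM in phGC-KD replicate 3, against 11.38 to 11.85 CPM, CLDN12 at 25.21 CPM in phGC-KD replicate 2, against 30.45 to 31.1 CPM, and GJA5, listed at 0 in phGC-CT replicate 3, against 0.2149 to 0.2434 CPM.

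The effect of the knockdown was called different between poGC and phGC for CDH5, by a log2 difference of -0.92, and for DSC2, by 0.94, in the interaction test of edgeR (adjusted p = 0.0237 and 0.0157, 4 libraries in each group). The call of CDH5 was lost without poGC-CT replicate 1 or phGC-KD replicate 3 (adjusted p 0.0512 to 0.0524, edgeR). It was also lost in the limma fit on log2(FPKM + 1), where adding 1 by itself narrows the differences of a gene this low.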

How the results depend on the processing

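Over 194 fold changes of described genes and 3461 alternative values, 3288 stayed on their side of the threshold, 108 lost the call and 65 gained it. Of the 3288, 98 changed sign and were not called in either setting; the sign of a called value never changed in these alternatives. The count of junction genes called in comp. poGC (13) ranged from 11 to 17 over the settings and from 11 to 15 when 1 library was left out, and 9 genes passed in every alternative. In comp. phGC (7) it was 11 by the DESeq2 test, 4 with all genes of at least 1 count and 11 in 1 fit of all 16 libraries, and from 3 to 8 when 1 library was left out, and CDH11 and CLDN1 passed in every alternative. The interaction gave 2 calls, 5 by the DESeq2 test and from 1 to 3 without 1 library. Stage counts ranged from 32 to 38 in controls (34) and from 28 to 35 in the knockdown (32), and poGC counts thinned to phGC totals gave 35 and 30.0. The limma fit on log2(FPKM + 1) called 28 genes for stage in the knockdown, all of them among the 32. CDH2 and CLDN20 were among those that lost their calls. CLDN20 had a highest group mean of 0.061 FPKM, where adding 1 leaves little of any difference. Expressed genes numbered 32 at 0.5 FPKM, 29 at 1 and 25 at 2 FPKM. No scaling moved the median of all genes by more than 0.0863 on the log2 scale. The replicate numbers showed no clear pairing of the samples. Over 4 comparisons, correlations of same-numbered deviations were -0.139 to 0.219, and 5 of 16 correlated best with their own number. For stage in controls all were positive (0.00441 to 0.0796). The labels tie no library to a hen, so that this check does not settle a pairing. The replicate block gave 11 and 6 calls for the knockdown in poGC and phGC, 33 and 30.0 for stage in controls and knockdown and 3 for the interaction. The cause of these shifts was not tested.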

Other observations

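Markers of cells that the report did not place beside a junction gene gave the following values. 5 of 6 theca and steroid-making stroma markers were measured and summed to 69.7 to 86.0 FPKM in poGC-KD, against 119 to 164 FPKM in poGC-CT, and to 130.1 to 173 FPKM in phGC-KD, against 185 to 264 FPKM in phGC-CT. In poGC-KD 1 of the 4 tested rose and 2 fell, and in phGC-KD 1 fell. 5 leukocyte markers summed to 55.3 to 61.1 FPKM in poGC-KD, against 70.6 to 77.9 FPKM in poGC-CT, and to 31.8 to 40.8 FPKM in phGC-KD, against 45.2 to 53.2 FPKM in phGC-CT, with 1 falling in each comparison. 4 red blood cell markers summed to 0 to 2.01 FPKM over all libraries. Of the 13 granulosa markers measured, 3 rose and 6 fell in poGC-KD, with FOXL2, the target of the siRNA, among those that fell. In phGC-KD 2 rose and none fell by edgeR. Over all genes tested, 28.8% were called in poGC and 9.97% in phGC.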
